A study of Mus musculus with 4 samples.

Results

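The chemokine ligands are the genes whose symbols are Ccl or Cxcl followed by digits, together with Xcl1, Cx3cl1 and Pf4. By that rule 37 of the 29073 genes listed in any library are ligands, and 35 of them were abundant enough to be tested over all cells. They were measured by single-cell RNA sequencing in liver tumours of male C57BL/6 mice that were 18 weeks old when the tissue was taken, 10 weeks after plasmids had been forced into the liver by hydrodynamic tail vein injection. Mice of both groups received c-MYC and AKT, each driven by the EF1α promoter on a pT3 transposon plasmid, and SB100X, the transposase that inserts such plasmids into the genome. The vector group also received the empty pT3 plasmid and the KLF2 group received pT3-EF1α-KLF2 in its place. Both groups therefore carry the oncogene pair in whichever liver cells took up plasmid, and the immune, vascular and stromal cells belong to hosts with no stated genetic change. Each group has 2 mice and each library comes from 1 mouse. Ligand counts could be read for vector replicate 2 and KLF2 replicates 1 and 2. For vector replicate 1 only the lists of genes and barcodes were analysed here. Each comparison below thus sets 1 vector library against 2 KLF2 libraries, and the vector library is assumed to vary as the KLF2 libraries do.

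Chemokines are small secreted proteins that draw cells along a gradient through receptors coupled to G proteins. CXC ligands with an ELR sequence, such as Cxcl1 and Cxcl2, act on Cxcr2 and recruit neutrophils, whereas Cxcl9 and Cxcl10 act on Cxcr3 and recruit activated T and NK cells after interferon-gamma. CC ligands such as Ccl2 and Ccl7 draw monocytes through Ccr2, and Ccl19, Ccl21a, Cxcl12 and Cxcl13 position lymphocytes in tissue. In liver, macrophages, sinusoidal endothelium, stellate cells and biliary epithelium are all known producers.

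Levels are given as CPM, the UMIs (unique molecular identifiers, each marking 1 captured molecule) of a ligand per 1000000 UMIs of the same class and library. After cells with fewer than 300 genes or more than 25% mitochondrial UMIs were removed, vector replicate 2 held 8403 cells with a median of 3191 UMIs, KLF2 replicate 1 held 6209 with 8912 and KLF2 replicate 2 held 11103 with 5854. The libraries stand apart in quality. Mitochondrial genes took 10.4% of the vector library's UMIs against 0.575% and 0.784% in the KLF2 libraries. Between 427 and 1289 barcode names were shared by each pair of libraries. These names are running numbers, so a shared name does not show a shared cell. Cells fell into 25 clusters, with the ligands kept out of the clustering, and 24 of these were joined into 7 classes by marker genes. Cluster 6, led by Gm10800 and mitochondrial genes, holds Ptprc and took no name. It has 1514 vector cells, 18% of that library, and 4 KLF2 cells, and it enters the whole-library values but no class. In a coarser clustering at resolution 0.5 the vector myeloid-like class grew from 727 to 1799 cells. The parenchymal compartment, called the compartment, joins hepatocyte-lineage-like and cholangiocyte-like clusters with unnamed clusters that hold little Ptprc, the pan-leukocyte gene. It held 620 vector cells and 5210 and 8349 KLF2 cells, and its make-up differed between the groups, since 617 of the vector cells but 20 and 58 of the KLF2 cells were hepatocyte-lineage-like. The labels were checked by the summed level of Klf2, the gene on the added plasmid. Over all cells it stood at 389, 338 and 406 CPM, where the groups overlapped. The compartment gave 136 CPM in vector replicate 2, 326 in KLF2 replicate 1 and 380 in KLF2 replicate 2. By contrast, T/NK-like cells gave 632, 346 and 336 CPM. Plasmid and endogenous Klf2 cannot be told apart in these counts. T/NK-like cells came from clusters 2 and 10 in the vector library and from cluster 16 in the KLF2 libraries, and myeloid-like and B-like cells likewise came mostly from different clusters. Of the 727 vector myeloid-like cells 717 lay in cluster 12, which held 4 and 17 KLF2 cells. The myeloid-like clusters 9, 19 and 23 held no vector cell. The part of cell subtype in the differences within these classes was not tested. Endothelial-like, mesenchymal-like and neutrophil-like cells of both groups shared their clusters.

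The sources of the ligands were asked for by setting each class against the mean of the others with the library as a block. A ligand was assigned to a class at an adjusted p under 0.05 and a log2 fold change of at least 1 (edgeR's quasi-likelihood test with Benjamini-Hochberg adjustment over all genes). Of the 26 ligands that could be tested, 25 had at least 1 such class. Myeloid-like cells were a source of 18 ligands, and 9.89% of all 12304 genes tested met the same rule in that class. Mesenchymal-like cells were a source of 8 ligands (13.4% of all genes), neutrophil-like cells of 6 (6.49%) and T/NK-like cells of 5 (8.7%). Endothelial-like cells were a source of 2, Cxcl12 and Cxcl9 (12.5%). The compartment was a source of Ccl27a alone (9.32%) and B-like cells of none (5.22%). With the default filter on low counts turned off, the ligands with a source numbered 33. By simple level the same class led in all 3 libraries for 17 ligands, another class led in at least 1 library for 13, and 7 had too few UMIs to be scored. The heat map of ligand levels shows this division of sources.

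**Figure D1:**
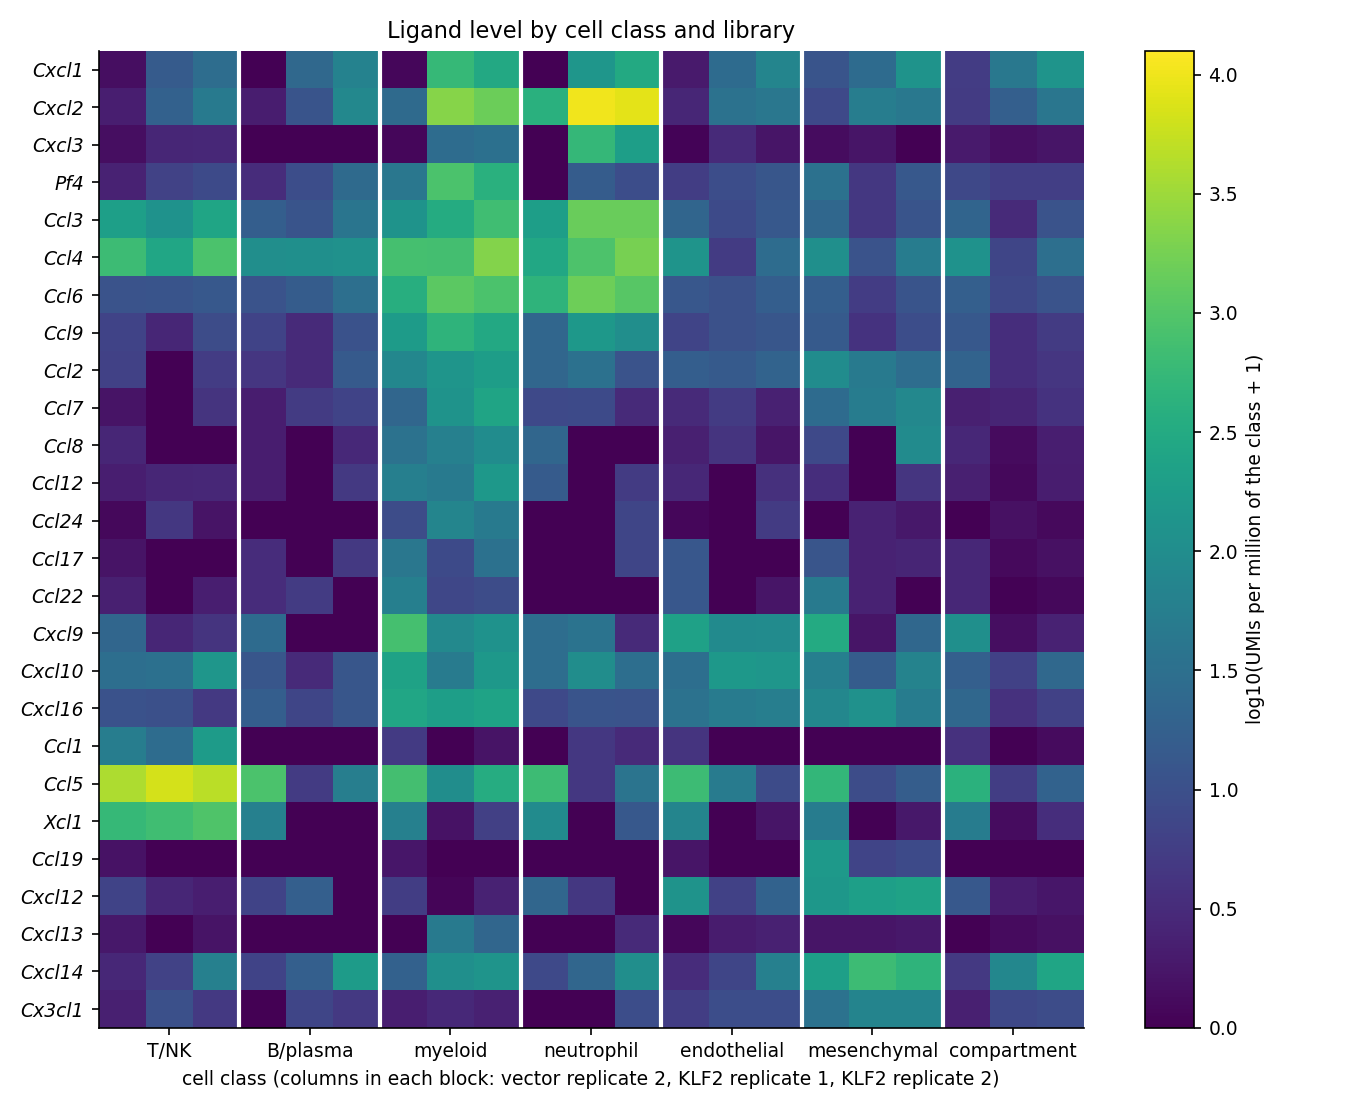
Level of the 26 ligands that reached 30 CPM in a class of at least 50 cells (rows), by cell class and library (columns, vector replicate 2 first in each block), as log10 of CPM plus 1. Ccl5 and Xcl1 are brightest in T/NK-like cells, Cxcl2 in neutrophil-like cells of the KLF2 libraries, and Cxcl9 in myeloid-like cells of the vector library.

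Over all cells of a library, 8 of the 35 tested ligands were higher and 10 were lower in the KLF2 libraries, where 21.3% and 17% of all 21285 genes were called in those directions. The higher ligands were the neutrophil attractants Cxcl1, Cxcl2 and Cxcl3, the epithelial ligands Cxcl14 and Cxcl17, and Cxcl13, Pf4 and Ccl24. The lower ligands were Ccl19, Xcl1, Ccl5, Ccl22, Cxcl9, Ccl11, Ccl1, Cxcl12, Ccl20 and Cxcl16. The median log2 difference of the tested ligands was −0.34, against 0.24 over all genes tested. Such whole-library values mix the level in a class with the number of its cells, and T/NK-like cells made up 35.8% of the vector cells against 1.5% and 3.56% of the KLF2 cells. Within classes, 28 of the 143 tested pairs of a ligand and a class were higher (19.6%) and 37 were lower (25.9%), against 11.5% and 9.04% of all pairs of a gene and a class. Fold changes are scaled by TMM, which lowers them against ratios of CPM by 0.23 to 0.70 on the log2 scale, depending on the class. In B-like, endothelial-like, mesenchymal-like and T/NK-like cells edgeR took the spread from a trend shared by all genes, so adjusted p-values there do not rest on a gene's own spread between mice. For ligands, calls lost with DESeq2, which estimates the spread in another way, are given beside the values. For receptors, cytokines and response genes the results with DESeq2 are not given, so their calls in these classes lack this check. Over all genes, DESeq2 called 579 higher and 148 lower in T/NK-like cells, against 1211 and 944 with edgeR. In endothelial-like cells it called 699 and 326 against 1535 and 1476, and in B-like cells 108 and 47 against 581 and 481. In mesenchymal-like cells it called 384 and 257 against 1218 and 971. The plot of whole-library levels shows all 3 libraries side by side. For 16 of 32 ligands tested, against 13.6% of all genes, the difference between groups was itself different between classes.

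**Figure D2:**
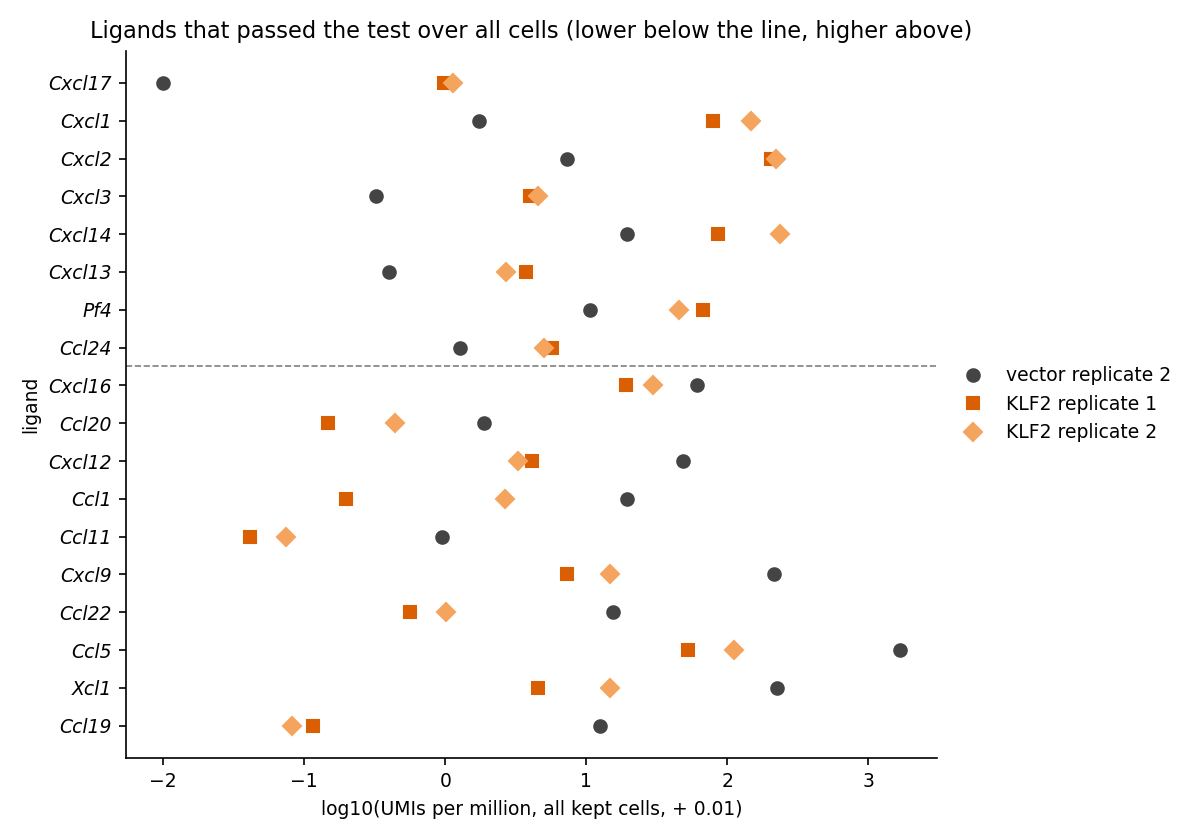
Level of the 18 ligands that passed the test over all cells, as log10 of CPM plus 0.01, with 1 point per library. The 8 ligands above the dashed line had both KLF2 libraries above the vector library and the 10 below it had both KLF2 libraries below; Cxcl17 had no UMI in the vector cells.

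Cxcl1, Cxcl2 and Cxcl3 encode close relatives that bind Cxcr2 on neutrophils. They lie on chromosome 5 within a run of 6 ligand genes from Cxcl5 (start 90759360) to Cxcl2 (end 90905938, GRCm38, GENCODE annotation). Their RefSeq promoters (build GRCm38.p6) are printed because the 3 genes moved together. Each is the 250 bases before the annotated start, 5′ to 3′ on the gene's strand, with matches to NF-kB motifs on either strand in capitals. The motifs searched were GGG, any 2 bases and then TTTCC, and GGG, any 2 bases and then TTCCC. All 3 lie on the plus strand, at chr5:90890995-90891244, chr5:90903649-90903898 and chr5:90785851-90786100 in this order.
Cxcl1: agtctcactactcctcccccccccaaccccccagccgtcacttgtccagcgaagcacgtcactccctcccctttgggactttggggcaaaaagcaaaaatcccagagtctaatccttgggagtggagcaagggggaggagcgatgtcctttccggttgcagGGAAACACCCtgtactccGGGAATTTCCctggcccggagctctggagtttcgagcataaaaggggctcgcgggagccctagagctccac
Cxcl2: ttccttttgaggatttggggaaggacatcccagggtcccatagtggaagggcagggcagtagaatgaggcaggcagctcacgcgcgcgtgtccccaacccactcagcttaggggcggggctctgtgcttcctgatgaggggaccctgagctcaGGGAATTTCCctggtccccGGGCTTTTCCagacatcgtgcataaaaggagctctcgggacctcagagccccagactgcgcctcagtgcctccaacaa
Cxcl3: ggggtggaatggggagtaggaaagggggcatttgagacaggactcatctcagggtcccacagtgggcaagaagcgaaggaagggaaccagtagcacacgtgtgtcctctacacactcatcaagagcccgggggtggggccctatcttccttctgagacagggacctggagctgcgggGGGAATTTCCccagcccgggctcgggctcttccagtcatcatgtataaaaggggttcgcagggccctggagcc

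The Cxcl1 promoter held the TTTCC form at 71 to 62 and at 89 to 80 bases before the start, the Cxcl2 promoter at 97 to 88 and 78 to 69, and the Cxcl3 promoter at 73 to 64. Of 32851 promoters of this length, 1.41% held that motif. Among the 27 ligands with a promoter in the table, the others with it were Ccl9 and Ccl20. A match of letters is a description and not evidence of binding.

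Cxcl2 was measured at 401 CPM in neutrophil-like cells of vector replicate 2 and at 10334 and 8656 CPM in those of KLF2 replicates 1 and 2. Both KLF2 libraries stood above the vector library, at a log2 fold change of 4.09 ± 0.53 (SE) and an adjusted p of 0.00864. This class held 71, 59 and 147 cells, and 3 of its 12 tested ligands were higher, where 1.14% of all genes were, and 1 was lower, where 1.39% were. The share of all genes called in this class varied with the setting. At resolution 0.5, 258 of 4308 genes were higher and 211 lower, with 4 and 2 of 12 ligands. With DESeq2, 19 of 4391 genes were higher and 27 lower, with 1 ligand higher. When cells in the top 5% by doublet score were left out, the adjusted p of Cxcl2 was 0.0502. In myeloid-like cells Cxcl2 was at 25.1 CPM in the vector library and at 2238 and 1521 CPM in the KLF2 libraries (log2 fold change 5.91 ± 0.46, adjusted p = 0.00239). The rise was also seen as a share of cells. After each cell was thinned to 1000 UMIs, Cxcl2 was found in 9.43% of 53 vector neutrophil-like cells (Wilson 95% interval 4.1 to 20.3%), 89.8% of 59 (79.5 to 95.3%) and 84.4% of 147 (77.6 to 89.3%). Unthinned, those shares were 12.7%, 91.5% and 90.5%. In T/NK-like cells, which are not a source of Cxcl2, the thinned shares were 0.068%, 2.15% and 4.05%.

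Cxcl1 had 1 UMI in all vector myeloid-like cells and 7488 UMIs in the KLF2 ones, a ratio of 1979 with a counting interval of 355 to 78186. Its levels there were 0.196 CPM in the vector library and 556 and 297 CPM in the KLF2 libraries (adjusted p = 0.00256). Among KLF2 myeloid-like clusters it was highest in cluster 23, led by Saa3, Arg1, Lyz2, Apoc2 and Itgam, at 955 and 825 CPM. It stood at 404 and 340 CPM in cluster 9, led by Mmp12, C1qa, C1qc, Apoe and Rgs1. In cluster 18, led by the Kupffer cell genes Cd5l, Clec4f and Vsig4 together with Apoc1 and Fcna, it reached 20.8 and 95.1 CPM. Cxcl2 had the same order in these clusters, at 4030 and 3804, 1377 and 1745, and 195 and 482 CPM. Clusters 23 and 9 held no vector cell, and the part of cell subtype in the myeloid-like rises was not tested. In the compartment Cxcl1 was at 4.43 CPM in the vector library and 43.3 and 132 CPM in the KLF2 libraries. This difference did not pass (log2 fold change 3.61 ± 0.98, adjusted p = 0.0622). The largest share of Cxcl1 UMIs came from myeloid-like cells in KLF2 replicate 1 (49.8%) and from the compartment in KLF2 replicate 2 (77.1%).

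Cxcl3 had no UMI in vector neutrophil-like cells and 544 and 199 CPM in the KLF2 ones, at least 15.2-fold higher by the floor of 3 counts over the vector group. In myeloid-like cells it went from 0.196 to 27.6 and 31.7 CPM, a ratio of 154 with a counting interval of 27.6 to 6107. Cxcl1 in neutrophil-like cells likewise had no vector UMI and was at least 11.7-fold higher. With DESeq2 neither passed in neutrophil-like cells (adjusted p = 0.0701 for Cxcl3 and 0.162 for Cxcl1). The 2 ligands Cxcl1 and Cxcl2 were also called higher at low level in T/NK-like, B-like, endothelial-like and mesenchymal-like cells. With DESeq2 they did not pass in B-like cells (adjusted p = 0.0597 for Cxcl1 and 0.165 for Cxcl2) or in mesenchymal-like cells (0.143 and 0.123). Of 10 ligands tested in B-like cells, 3 were higher and 3 lower, where 8.63% and 7.15% of all genes were. In T/NK-like cells Cxcl2 stood at 1.22, 17.8 and 46.7 CPM and in endothelial-like cells at 1.77, 34.4 and 41.7 CPM. The summed level of all 18 myeloid markers was 507 CPM in vector T/NK-like cells and 669 and 642 CPM in KLF2 ones, with 18, 9 and 15 of them found. The part of RNA from other cells in these low levels was not tested. The plot of these ligands by class shows that the 3 neutrophil attractants rose in myeloid-like and neutrophil-like cells alike.

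**Figure D3:**
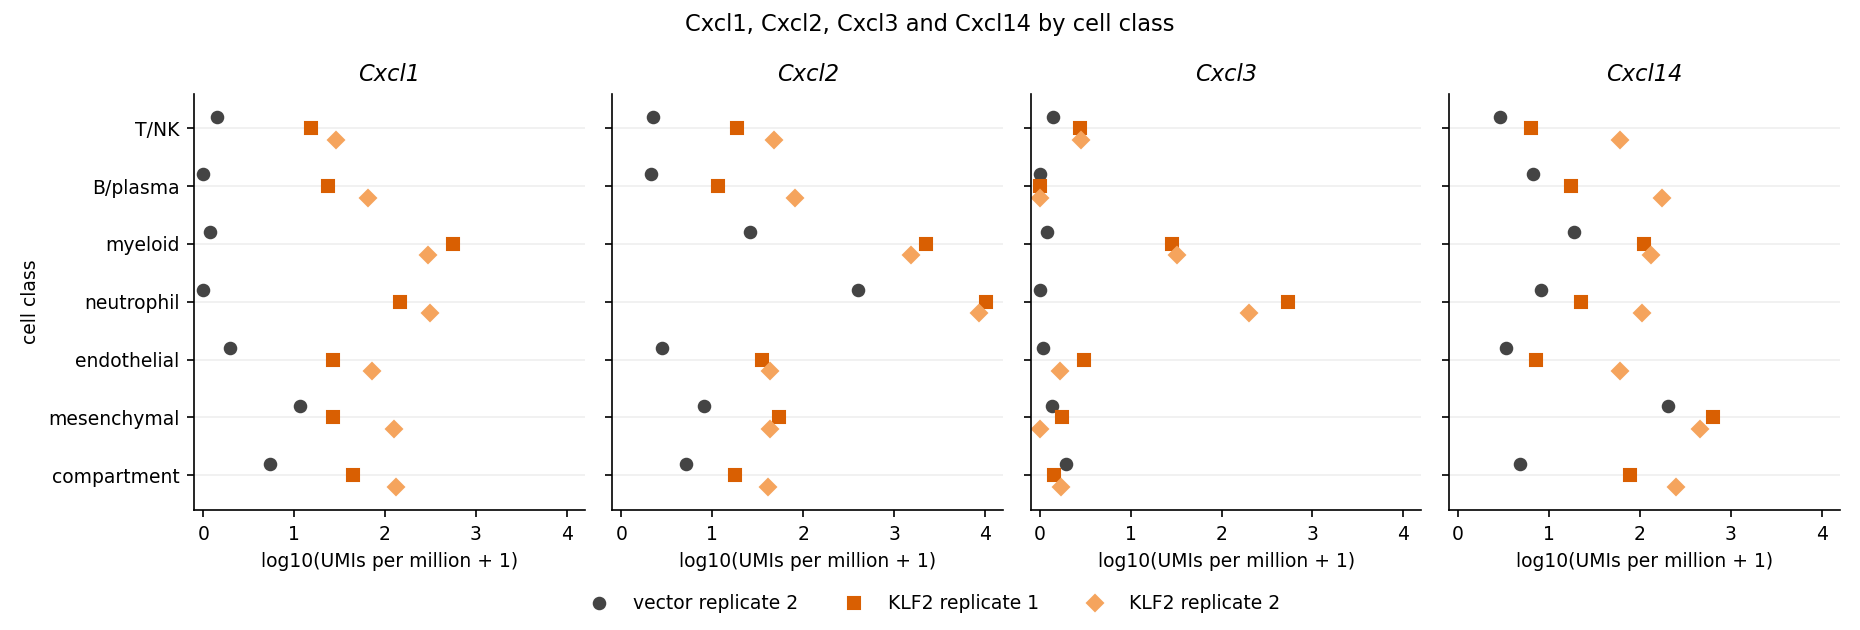
Levels of Cxcl1, Cxcl2, Cxcl3 and Cxcl14 in the 7 classes, as log10 of CPM plus 1, with 1 point per library. Cxcl2 reaches 10334 and 8656 CPM in KLF2 neutrophil-like cells against 401 CPM in the vector ones, and Cxcl14 in the compartment reaches 77.1 and 252 CPM against 3.79 CPM.

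Several other CXC ligands were epithelial or macrophage genes. Cxcl14, a ligand of epithelia and fibroblasts whose receptor is debated, gave 3.79, 77.1 and 252 CPM in the compartment of vector replicate 2, KLF2 replicate 1 and KLF2 replicate 2 (log2 fold change 4.74 ± 1.07, adjusted p = 0.0413). It was the only ligand called higher there, a share of 1 in 32 against 13.3% of all 20444 genes tested, and 9 ligands were lower there, against 10.4%. Its level was 449 and 878 CPM in cluster 11, the cholangiocyte-like cluster led by Ly6d, Krt19, Tgm3, Krt18 and Krt8, which had no vector cell. After thinning, 21.7% of 203 cells (16.6 to 27.8%) and 41.5% of 772 cells (38 to 45%) of that cluster carried it, and 63.5% and 81.2% did so unthinned. In mesenchymal-like cells, its source in the test of classes, it stood at 202, 636 and 462 CPM (log2 fold change 0.81 ± 0.45, adjusted p = 0.206). Cxcl14 was also called higher in myeloid-like cells, at 17.6, 110 and 132 CPM. There the 12 cholangiocyte markers together stood at 45.9, 2563 and 2509 CPM, with 7, 12 and 12 of them found. Cxcl14 was likewise called higher in endothelial-like cells (2.36, 6.26 and 59.5 CPM), T/NK-like cells (1.87, 5.35 and 59.2 CPM) and B-like cells (5.69, 16.7 and 174 CPM), with DESeq2 in none of these 3 (adjusted p = 0.427, 0.476 and 0.614). The cholangiocyte markers stood at 17.0, 121 and 365 CPM in the endothelial-like, 31.1, 125 and 430 CPM in the T/NK-like and 26.2, 123 and 833 CPM in the B-like cells. Their part in the Cxcl14 values was not tested. Over all cells with at most 10% mitochondrial UMIs, the rise of Cxcl14 no longer passed (adjusted p = 0.0702).

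Cxcl17, a mucosal ligand, had no UMI in vector cells and 0.967 and 1.13 CPM over all KLF2 cells, at least 13.5-fold higher, with 6.94 and 4.57 CPM in cluster 11. Cxcl5, another Cxcr2 ligand, was at 41.4 CPM in cluster 11 of KLF2 replicate 1 but at 2.11 CPM in that of replicate 2, and its whole-library difference did not pass (adjusted p = 0.2). Cxcl15, a ligand known from lung epithelium, had 1270 UMIs in KLF2 replicate 1, 51 in KLF2 replicate 2 and none in vector replicate 2. Most came from cluster 7, led by Serpinf1, Slpi, Col1a1, Dapl1 and Crym, where it stood at 54.6 and 4.51 CPM, so the 2 KLF2 mice differed widely and the comparison did not pass (adjusted p = 0.0964). Pf4, a platelet CXC ligand that liver macrophages also express, was at 41.4 CPM in vector myeloid-like cells and at 883 and 406 CPM in KLF2 ones (log2 fold change 3.65 ± 0.58, adjusted p = 0.0125). Its KLF2 levels were 1132 and 516 CPM in cluster 9, which held no vector cell, and 62.5 and 90.8 CPM in the Kupffer-gene cluster 18. In mesenchymal-like cells Pf4 moved the other way, at 32.5, 3.68 and 12.4 CPM (adjusted p = 3.53e-06, but 0.134 with DESeq2).

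In myeloid-like cells, 8 of 28 tested ligands were higher (11.7% of all genes) and 3 were lower (6.99% of all genes). The myeloid-like cells of the groups came mostly from different clusters, and the part of cell subtype was not tested. Among the CC ligands of monocytes and eosinophils, Ccl7 and Ccl24 rose. Ccl7, a Ccr2 ligand, stood at 21.2, 127 and 249 CPM (log2 fold change 2.83 ± 0.50, adjusted p = 0.0167). Ccl24, an eosinophil attractant of alternatively activated macrophages, stood at 8.04, 73.6 and 46.9 CPM (2.58 ± 0.41, adjusted p = 0.0124), and was found mainly in clusters 18 and 9. Ccl2, the main Ccr2 ligand, stood at 79.2, 138 and 190 CPM and did not pass (0.73 ± 0.31, adjusted p = 0.148). Ccl2 fell in mesenchymal-like cells, at 96.9, 45.6 and 28.2 CPM (adjusted p = 0.000121, but 0.19 with thinned cells), and in the compartment, at 19.0, 2.47 and 3.37 CPM (adjusted p = 0.00766). Its leading class thereby went from mesenchymal-like in the vector library to myeloid-like in the KLF2 libraries. Ccl12, a mouse Ccr2 ligand, stood at 57.4, 47.6 and 151 CPM in myeloid-like cells and Ccl8 at 33.9, 60.6 and 97.2 CPM, and neither passed. Ccl8 was called higher in mesenchymal-like cells, but this call was lost with DESeq2 (adjusted p = 0.979) and rests on KLF2 replicate 2, since the levels were 6.99, 0 and 95.2 CPM. Without that replicate the difference in log2 CPM, with a small count added, was −3.27, with no test. Since KLF2 replicate 1 had no Ccl8 UMI there, the size of that value depends on the added count.

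Ccl3 and Ccl4, inflammatory CC ligands, and Ccl6 and Ccl9, Ccr1 ligands of mouse myeloid cells, came from myeloid-like and neutrophil-like cells, and Ccl3 and Ccl4 also from T/NK-like cells. Ccl3 in neutrophil-like cells stood at 200.3 CPM in the vector library and 1455 and 1451 CPM in the KLF2 libraries (log2 fold change 2.38 ± 0.52, adjusted p = 0.058). In myeloid-like cells it stood at 128, 328 and 694 CPM (adjusted p = 0.0646). The KLF2 values lay above the vector value in both classes, and the difference missed the threshold in each. Ccl4 in myeloid-like cells stood at 777, 751 and 2198 CPM, where the groups overlapped. Ccl6 stood at 368, 1160 and 861 CPM in myeloid-like cells (adjusted p = 0.0566) and Ccl9 at 180, 459 and 292 CPM (adjusted p = 0.191). Outside their sources, all 4 were called lower in mesenchymal-like cells, and none of the 4 with DESeq2 (adjusted p = 0.319 for Ccl3, 0.582 for Ccl4, 0.644 for Ccl6 and 0.638 for Ccl9). Ccl4 was also called lower in endothelial-like cells, from 130 to 4.17 and 27.4 CPM (log2 fold change −3.27 ± 0.32, adjusted p = 2.23e-22, but 0.346 with DESeq2). Vector Ccl5 UMIs per Ccl4 UMI numbered 6.14 in T/NK-like, 4.97 in endothelial-like, 4.67 in mesenchymal-like and 0.957 in myeloid-like cells. The part of RNA from other cells in the falls of Ccl3 and Ccl4 outside their sources was not tested. In all, 12 of 24 ligands were lower in mesenchymal-like cells, where 8.8% of all genes were, and 3 were higher, where 11% were. In endothelial-like cells 8 of 20 were lower, where 13.9% were.

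Ccl17 and Ccl22 encode the Ccr4 ligands of dendritic cells. Ccl22 fell in myeloid-like cells, from 56.8 to 6.35 and 7.90 CPM (log2 fold change −3.30 ± 0.26, adjusted p = 0.00239). Ccl17 stood at 41.5, 7.24 and 33.1 CPM there and did not pass (adjusted p = 0.235). It was called lower in endothelial-like cells (adjusted p = 6.24e-07) and mesenchymal-like cells (0.0152, but 0.279 with DESeq2). Ccl22 was also called lower in endothelial-like cells (adjusted p = 5.7e-06, but 0.07 with DESeq2) and mesenchymal-like cells (6.59e-19). In the compartment the Ccl22 call (0.0497) was lost in 2 alternatives (adjusted p up to 0.0689). In the KLF2 libraries Ccl17 and Ccl22 were concentrated in cluster 19, led by Plac8, H2-Ab1, H2-Aa, Cst3 and H2-Eb1. In that cluster Ccl17 reached 57.8 and 232 CPM and Ccl22 47.9 and 49.3 CPM. Vector myeloid-like cells came mostly from cluster 12, which is led by H2-Ab1, H2-Aa, H2-Eb1, Cd74 and Ifi30 and held 42.0 CPM of Ccl17 and 57.5 CPM of Ccl22. Ccl22 in vector mesenchymal-like cells reached 47.2 CPM but was found in 2.25% of those cells. Cxcl16, the membrane-bound Cxcr6 ligand, stood at 267, 200.4 and 237 CPM in myeloid-like cells, its leading class in each library, and did not pass (adjusted p = 0.164). It fell in the compartment, from 22.4 to 2.90 and 5.22 CPM (log2 fold change −3.17 ± 0.44, adjusted p = 0.0141).

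Cxcl9 and Cxcl10 encode the Cxcr3 ligands. They are neighbours on the minus strand of chromosome 5, 18.6 kb apart (Cxcl9 at 92321347 to 92328079, Cxcl10 at 92346638 to 92348889, where Art3 overlaps it on the other strand), and their promoters at chr5:92328080-92328329 and chr5:92348890-92349139 are shown because these neighbours parted in the data. Capitals mark the same NF-kB motifs and, in addition, the interferon-stimulated element (TTTC, any 2 bases, TTTC) and the gamma-activated site (TTC, any 3 bases, GAA), all on either strand.
Cxcl9: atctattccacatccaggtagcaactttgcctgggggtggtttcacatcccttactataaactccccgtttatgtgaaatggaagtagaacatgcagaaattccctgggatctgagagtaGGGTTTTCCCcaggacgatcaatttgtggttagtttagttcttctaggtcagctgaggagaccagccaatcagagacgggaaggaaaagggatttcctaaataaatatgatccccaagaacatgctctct
Cxcl10: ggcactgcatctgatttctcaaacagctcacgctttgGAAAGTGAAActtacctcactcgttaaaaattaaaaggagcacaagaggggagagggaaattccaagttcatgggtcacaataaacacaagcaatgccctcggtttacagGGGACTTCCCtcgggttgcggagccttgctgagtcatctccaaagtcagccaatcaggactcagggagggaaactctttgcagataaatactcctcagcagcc

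Both held the TTCCC form, at 130 to 121 bases before the Cxcl9 start and at 103 to 94 before the Cxcl10 start, a motif in 1.53% of all promoters. Of this pair Cxcl10 alone held the interferon-stimulated element, at 213 to 204 bases, which 2.98% of all promoters hold. The gamma-activated site, held by 7.02% of all promoters, was in neither window.

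Cxcl9 was called lower in 6 classes, and with DESeq2 no longer in mesenchymal-like, T/NK-like and B-like cells. In myeloid-like cells it was measured at 774 CPM in vector replicate 2 and at 82.9 and 121 CPM in KLF2 replicates 1 and 2 (log2 fold change −3.24 ± 0.31, adjusted p = 0.00353). After thinning, 24.8% of 721 vector myeloid-like cells carried it, against 2.67% of 561 and 5.43% of 1639 KLF2 cells. The unthinned shares were 44.8%, 5.7% and 11.6%, and the thinned share in vector T/NK-like cells was 2.04%. In mesenchymal-like cells it stood at 316, 0.736 and 22.4 CPM (−5.42 ± 0.50, adjusted p = 5.95e-25, but 0.292 with DESeq2). In endothelial-like cells the fall was smaller, at 220, 90.8 and 92.4 CPM (−1.65 ± 0.30, adjusted p = 7.4e-07). The endothelial clusters went in different directions, with no test made within them. In cluster 5, led by Fabp4, Igfbp3, Gpihbp1, Col4a1 and Cd93, Cxcl9 stood at 253, 44.5 and 61.0 CPM. In cluster 15, led by Ptprb and the sinusoidal genes Gpr182, Stab2, Aqp1 and Clec4g, it stood at 59.7, 140 and 120 CPM. Cluster 5 held 1459 of 1809 vector endothelial-like cells, but 40 of 98 and 103 of 241 KLF2 ones.

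Cxcl10 rose in endothelial-like cells, where 5 of 20 ligands were higher and 14.4% of all genes were. Its levels there were 28.8 CPM in the vector library and 152 and 142 CPM in the KLF2 libraries (log2 fold change 1.96 ± 0.33, adjusted p = 8.48e-08). Both KLF2 libraries stood above the vector library. In cluster 15 it was at 21.4, 106 and 233 CPM and in cluster 5 at 30.4, 196 and 40.6 CPM. In T/NK-like cells it was called higher at 28.8, 32.1 and 143 CPM, a call lost with DESeq2 (adjusted p = 0.932) that rests on KLF2 replicate 2. Without that replicate the difference in log2 CPM, with a small count added, was −0.18. In myeloid-like cells Cxcl10 stood at 230, 49.8 and 155 CPM and did not pass (−1.48 ± 0.59, adjusted p = 0.131). Both ligands had effects that differed between classes, at adjusted p = 0.00215 for Cxcl9 and 0.0487 for Cxcl10, and with DESeq2 neither passed (0.0668 and 0.236). No gene of the interferon-gamma response list rose in any class. Of its 19 genes, 16 fell in myeloid-like cells, where 6.99% of all genes did, and 16 in mesenchymal-like cells (8.8%). In endothelial-like cells 14 fell (13.9%) and in T/NK-like cells 7 (8.92%). In the compartment 16 of 19 fell (10.4%), in B-like cells 8 of 16 (7.15%) and in neutrophil-like cells 2 of 15 (1.39%). The share of all genes in neutrophil-like cells varied with the setting, as given above. Ifng itself was called lower in T/NK-like cells, at 180, 137 and 85.4 CPM (log2 fold change −0.98 ± 0.28, adjusted p = 0.00406). The result for Ifng with DESeq2, which called 148 genes lower in this class against 944 with edgeR, is not given.

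**Figure D4:**
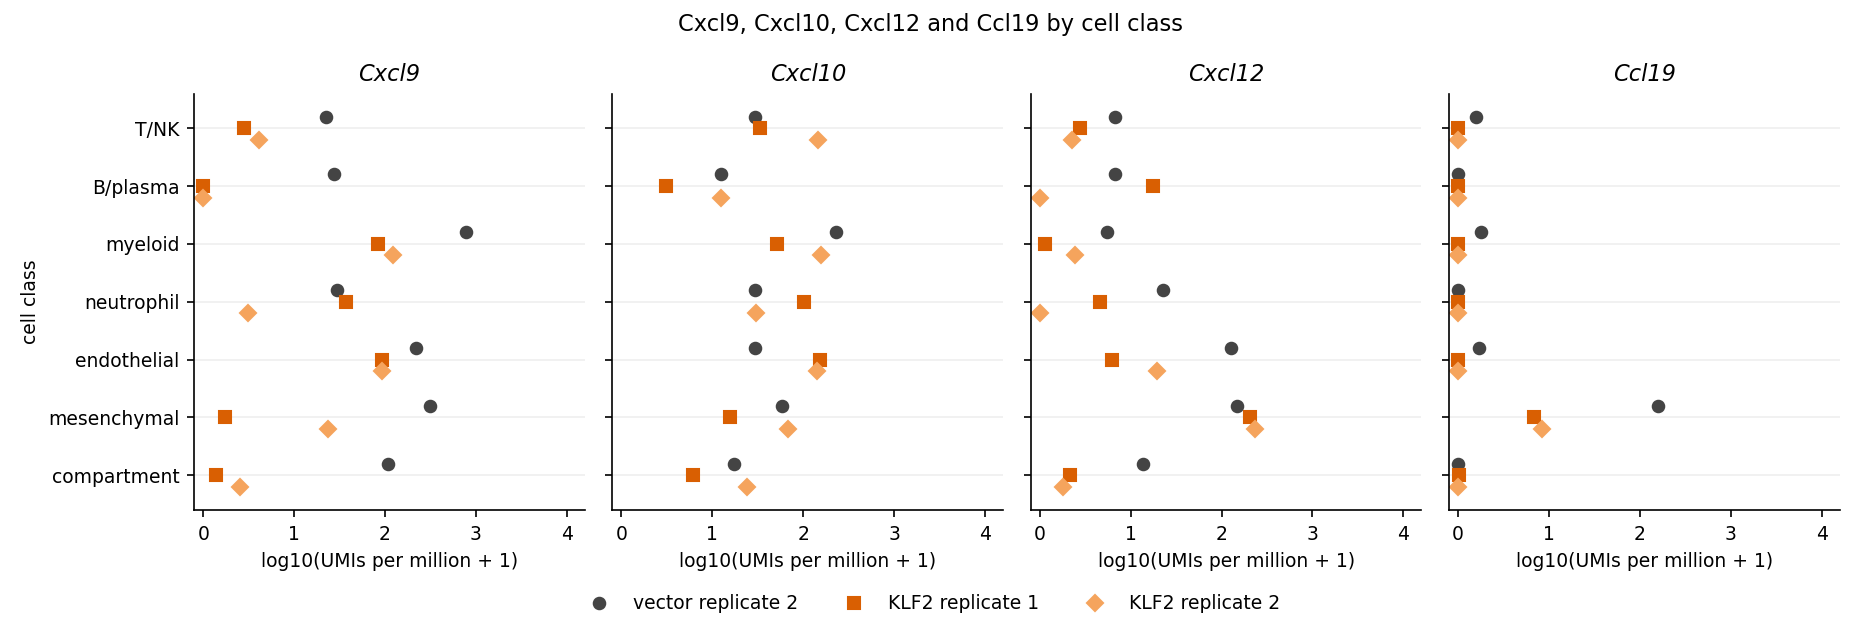
Levels of Cxcl9, Cxcl10, Cxcl12 and Ccl19 in the 7 classes, as log10 of CPM plus 1, with 1 point per library. In endothelial-like cells the KLF2 points lie below the vector point for Cxcl9 (90.8 and 92.4 against 220 CPM) and Cxcl12 (5.22 and 18.5 against 125 CPM) and above it for Cxcl10 (152 and 142 against 28.8 CPM).

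Ccl5, Xcl1 and Ccl1 were T/NK ligands in all 3 libraries. Ccl5, a ligand of cytotoxic and memory cells, was measured at 3906 CPM in T/NK-like cells of vector replicate 2 and at 6906 and 4812 CPM in those of KLF2 replicates 1 and 2. The KLF2 values lay above the vector value, but the difference did not pass (log2 fold change 0.33 ± 0.27, adjusted p = 0.434). The thinned share of T/NK-like cells with Ccl5 was 67% of 2942, 65.6% of 93 and 62.5% of 395, and 82.9%, 77.4% and 70.9% unthinned. Xcl1, which draws cross-presenting dendritic cells through Xcr1, stood at 561, 705 and 932 CPM in T/NK-like cells and did not pass (0.33 ± 0.28, adjusted p = 0.442). Ccl1, a Ccr8 ligand, was called higher at 53.2, 26.8 and 179 CPM (0.92 ± 0.30, adjusted p = 0.0141). Its KLF2 values lie on either side of the vector value. Without KLF2 replicate 2 its difference in log2 CPM, with a small count added, was −1.32. With DESeq2 the call was lost (adjusted p = 0.991). Of 17 ligands tested in T/NK-like cells 5 were higher and 1 was lower, where 11.4% and 8.92% of all genes were.

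Over all cells Ccl5 fell from 1682 to 52.6 and 112 CPM (log2 fold change −4.82 ± 0.50, adjusted p = 0.00284) and Xcl1 from 227 to 4.53 and 14.6 CPM (−5.03 ± 0.68, adjusted p = 0.00588). Outside T/NK-like cells Ccl5 fell in 5 of 6 classes, not passing in myeloid-like cells (adjusted p = 0.0671), and Xcl1 in 5 of 6, not passing in neutrophil-like cells (adjusted p = 0.118). With DESeq2 the calls of Ccl5 in B-like and neutrophil-like cells (adjusted p = 0.334 and 0.38) and of Xcl1 in myeloid-like cells (0.0935) were lost. In endothelial-like cells Ccl5 stood at 646, 49.0 and 7.53 CPM and Xcl1 at 72.8, 0 and 0.684 CPM. After thinning, 25.6% of 1753 vector endothelial-like cells carried Ccl5, against 2.04% of 98 and 0.415% of 241 KLF2 cells, and 61.6%, 6.12% and 3.73% did unthinned. The vector share was similar in other classes, at 25.6% in mesenchymal-like, 25.1% in myeloid-like and 28% in B-like cells. The 16 T/NK markers, summed, stood at 620 CPM in vector endothelial-like cells with all 16 found, and at 7.31 and 23.9 CPM in KLF2 ones with 4 and 9 found. In vector mesenchymal-like cells they stood at 572 CPM and in vector myeloid-like cells at 451 CPM. In the T/NK-like cells themselves the sums were 4989, 7505 and 5052 CPM. In the vector library Ccl5 UMIs outnumbered Xcl1 UMIs 6.97 to 1 in T/NK-like cells, 8.86 to 1 in endothelial-like, 7.85 to 1 in compartment and 12.2 to 1 in myeloid-like cells. The part of free T/NK RNA in the falls outside T/NK-like cells was not tested.

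**Figure D5:**
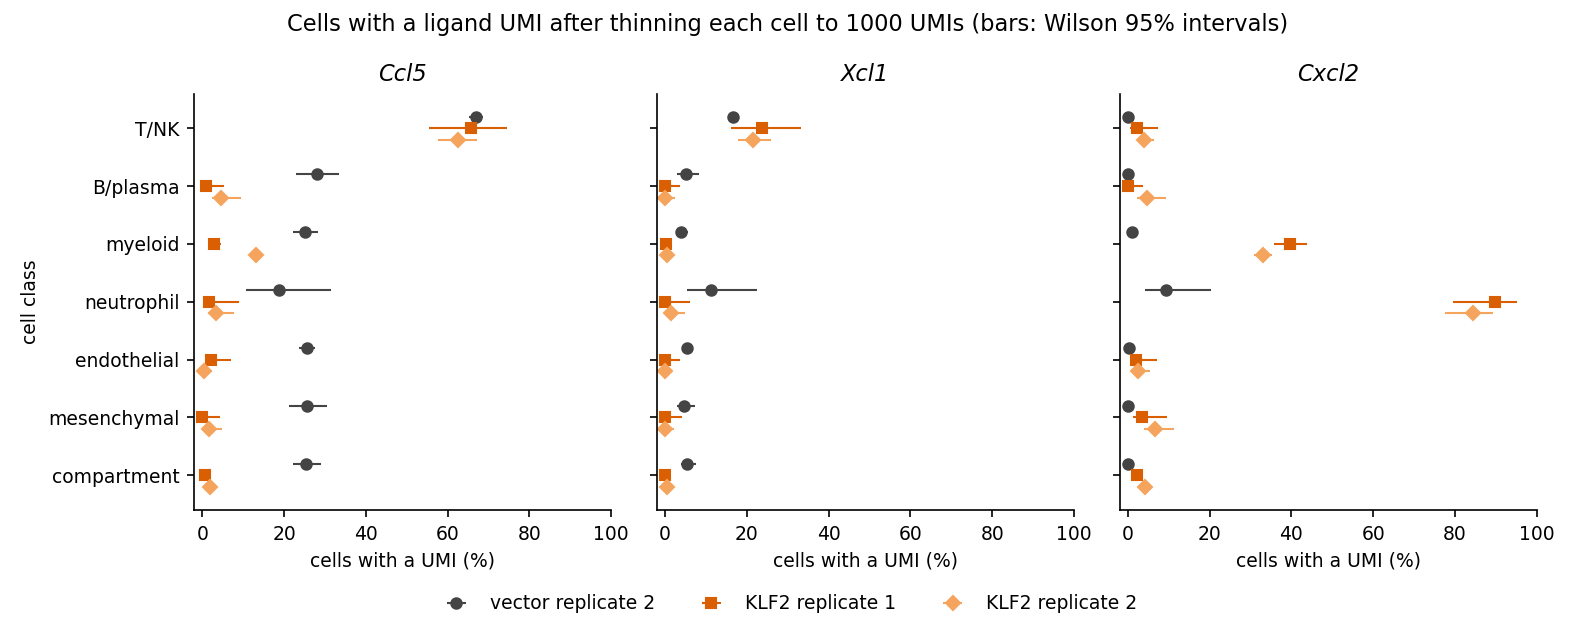
Share of cells of each class with at least 1 UMI of Ccl5, Xcl1 or Cxcl2 after thinning to 1000 UMIs, with Wilson 95% intervals, by library. In the vector library 25.6% of endothelial-like cells carried Ccl5 against 2.04% and 0.415% in the KLF2 libraries, while in T/NK-like cells the shares were 67%, 65.6% and 62.5%.

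Of the ligands that position lymphocytes in tissue, Ccl19 came mainly from mesenchymal-like cells and Cxcl12 from mesenchymal-like and endothelial-like cells. Cxcl13 and Ccl21a had other sources, given further below. Ccl19, a Ccr7 ligand of fibroblastic stroma, was at 158 CPM in vector mesenchymal-like cells and at 5.89 and 7.45 CPM in KLF2 ones (log2 fold change −5.18 ± 0.51, adjusted p = 3e-21). It was found in 36% of the vector cells of that class, and in 6.9% and 2.79% of the KLF2 cells. Thinned, the shares were 10.8% of 352, 1.15% of 87 and 0.559% of 179, and 0.068% in vector T/NK-like cells. Cxcl12, the Cxcr4 ligand, split by class. In mesenchymal-like cells it stood at 146, 203 and 230 CPM (−0.06 ± 0.45, adjusted p = 0.957), where TMM scaling lowers the fold change by 0.63 on the log2 scale, so that its sign differs from that of the CPM. In endothelial-like cells it fell from 125 to 5.22 and 18.5 CPM (−3.65 ± 0.33, adjusted p = 4.21e-26), and the difference between classes passed (adjusted p = 0.0071). With DESeq2 neither passed (adjusted p = 0.0887 and 0.326). The endothelial Cxcl12 came from cluster 5, at 151, 6.07 and 37.7 CPM, and was low in the sinusoidal-gene cluster 15, at 3.94, 4.31 and 1.29 CPM. Cx3cl1, the membrane-bound Cx3cr1 ligand, stood at 33.6, 70.6 and 70.4 CPM in mesenchymal-like cells and did not pass (adjusted p = 0.595).

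Cxcl13, the B cell attractant that binds Cxcr5, had no UMI in vector myeloid-like cells and 48.8 and 21.6 CPM in KLF2 ones, at least 53-fold higher. It came from the Kupffer-gene cluster 18, at 195 and 109 CPM, of which the vector library held 10 cells. Ccl21a, the Ccr7 ligand of lymphatic endothelium, was at 0.786, 13.6 and 10.3 CPM in endothelial-like cells from 8, 13 and 15 UMIs (adjusted p = 0.00825, but 0.0524 when clustered at resolution 2). Near-identical copies of Ccl21a and of Ccl27a exist in the mouse genome, so their counts are uncertain. Ccl11, an eosinophil attractant, fell over all cells from 36 to 3 and 8 UMIs, and 24 of the vector UMIs were in mesenchymal-like cells. Ccl20, a Ccr6 ligand, fell over all cells from 72 to 13 and 54 UMIs. Of the vector UMIs, 62 lay in T/NK-like cells, 0.0996% of which carried it. That call was lost in cells with at most 10% mitochondrial UMIs. Ccl27a, an epithelial Ccr10 ligand, stood at 17.1, 14.1 and 14.1 CPM in the compartment (adjusted p = 0.0599). Ccl25, a Ccr9 ligand, stood at 2.95, 6.95 and 7.68 CPM over all cells, Ccl28 had 2, 23 and 24 UMIs, and Ccl26 and Ccl27b had fewer than 3 in each library.

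Of 24 chemokine receptors, 22 were tested over all cells, of which 1 was higher and 15 were lower, where 21.3% and 17% of all genes were. In T/NK-like cells 2 of 12 were higher and 2 lower, where 11.4% and 8.92% were, among them Cxcr4, the Cxcl12 receptor, which fell from 134 to 44.6 and 68.6 CPM (log2 fold change −1.38 ± 0.29, adjusted p = 3.31e-05). In myeloid-like cells 5 of 13 fell, where 6.99% of all genes did, and 1 rose, Ccrl2, an atypical receptor that holds chemerin and does not signal, from 48.0 to 343 and 291 CPM (2.40 ± 0.31, adjusted p = 0.00754). In endothelial-like cells 2 of 10 were higher and 4 lower, where 14.4% and 13.9% were. The lower ones were Ccr2, Cxcr3, Cxcr4 and Cxcr6, with Cxcr6, the Cxcl16 receptor, at 13.5, 0 and 2.05 CPM. Ackr2, a decoy that takes up inflammatory CC ligands, rose from 6.19 to 43.8 and 33.5 CPM there (2.23 ± 0.40). In B-like cells 1 of 6 was higher and 2 were lower, where 8.63% and 7.15% were. The lower ones, Cxcr3 and Cxcr6, had 30 and 33 UMIs in the vector library and none in the KLF2 libraries. Ccr7, the Ccl19 and Ccl21a receptor, rose from 146 to 394 and 415 CPM (1.25 ± 0.43). T/NK-like cells were 35.8% of the vector cells against 1.5% and 3.56% of the KLF2 cells. The part of free T/NK RNA in the receptor falls in endothelial-like and B-like cells was not tested.

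Among 20 cytokines known to induce ligands, 6 of 13 tested rose in myeloid-like cells and 2 fell, where 11.7% and 6.99% of all genes did. Il1b, the inflammasome product that induces Cxcl1 and Cxcl2 in many cells, stood at 120, 654 and 1129 CPM (log2 fold change 2.58 ± 0.44, adjusted p = 0.0144). Il1a stood at 0.784, 89.1 and 80.1 CPM. In T/NK-like cells 3 of 15 were higher (Il1b, Il4 and Il13) and 5 were lower (Ifng, Il10, Il17a, Tgfb1 and Tnf), where 11.4% and 8.92% of all genes were. Tnf fell there, from 70.3 to 16.1 and 19.9 CPM (−2.11 ± 0.35). Of 18 NF-kB feedback genes, 3 rose in myeloid-like cells and 6 fell, where 11.7% and 6.99% of all genes did. Nfkbia, the inhibitor that NF-kB induces, rose from 383 to 1371 and 1030 CPM and Nfkbiz from 54.9 to 254 and 272 CPM. Traf1 fell from 108 to 16.7 and 20.1 CPM and Nfkb2 from 61.9 to 21.1 and 17.3 CPM, so this list did not move one way. The KLF2 myeloid-like cells came from other clusters than the vector ones, and the part of cell subtype in these differences was not tested.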

How the data were processed

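Each library is a table of UMI counts per gene and cell, deposited by the authors as a matrix written with PISA 1.0, per the file headers, and GRCm38 is named in the submitters' processing notes. Aligner settings and strandedness: not given in the sources used here. Vector replicate 1 is not analysed here beyond its gene and barcode lists. Cells below 300 genes or above 25% mitochondrial UMIs were dropped, and the others were clustered (scanpy 1.11.5, Leiden at resolution 1 from 2000 variable genes and 30 components, without the ligands). Clusters took a class name from at least 3 markers. Scrublet called 0 doublets and is taken not to have worked, so an alternative removed the 5% highest scores. Counts were summed per library and class and tested with edgeR 4.0.16 (quasi-likelihood, TMM, default filter, Benjamini-Hochberg over all genes, threshold 0.05), with DESeq2 1.42.0 as an alternative. The scripts were tested on simulated data. With 1 vector and 2 KLF2 libraries, each fit has 1 residual degree of freedom from the 2 KLF2 mice, and the spread is shrunk to a trend over all genes, wholly so in B-like, endothelial-like, mesenchymal-like and T/NK-like cells. Wilson 95% intervals and the floor of 3 counts cover counting error only. Ligands that reached 30 CPM in a class of at least 50 cells in any library are given in full, and statistics are given for those that passed a test and for up to 10 others with high levels. The members and gene lists were chosen with earlier results of these data known.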

Additional observations from a re-analysis of the deposited data

Results flagged for a closer look

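For 16 ligands the difference between the KLF2 and vector libraries was itself different between classes, by a test of the class by group interaction (edgeR's quasi-likelihood test, adjusted over all genes). Ccl4 had an adjusted p of 4.67e-05 and Ccl3 of 0.000194, and both were called lower in endothelial-like and mesenchymal-like cells, in none of these with DESeq2, and passed in no class as higher. Xcl1 (0.000117) and Ccl5 (0.00582) fell outside T/NK-like cells and did not pass within them. Pf4 (0.000255) rose in myeloid-like and fell in mesenchymal-like cells. Cxcl9 (0.00215) fell in 6 classes by log2 fold changes from −7.50 in the compartment to −1.65 in endothelial-like cells. Ccl2 (0.00215), Ccl6 (0.00294) and Ccl9 (0.00454) fell in mesenchymal-like cells and the compartment and did not pass in myeloid-like cells. Cxcl12 (0.0071) fell in endothelial-like cells and in the compartment, with no passing difference in mesenchymal-like cells. Cxcl16 (0.00802) fell in the compartment alone among the classes tested. Cxcl1 (0.00948) was called higher in every class tested except the compartment. Ccl7 (0.0374) and Cxcl13 (0.0417) rose in myeloid-like cells, but their difference between classes was lost in 2 and 4 of 10 alternatives (adjusted p up to 0.0741 and 0.594). Cxcl10 (0.0487) rose in endothelial-like and T/NK-like cells, and Ccl1 (0.00185) was called higher in T/NK-like cells; both T/NK calls rest on KLF2 replicate 2. With DESeq2 the difference between classes was lost for Ccl1, Ccl7, Cxcl9, Cxcl10, Cxcl12 and Cxcl13 (adjusted p = 0.0606 for Ccl7, 0.0668 for Cxcl9, 0.113 for Cxcl13, 0.236 for Cxcl10 and 0.326 for Cxcl12). For Ccl9 it was lost with thinned cells (0.322), as were the lower calls of Ccl6 (0.512) and Ccl9 (0.916) in the compartment.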

How the results depend on the processing

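No paired analysis was possible because the groups with counts share 1 replicate number only. Of the calls, 14 of 18 over all cells, 29 of 65 within classes and 9 of 16 differences between classes kept their direction and side of the threshold in every alternative that gave a test. The 37 lower pairs of ligand and class of 143 tested became 23 of 143 with DESeq2, for which the cause was not tested, and 23 with cells thinned to 1000 UMIs, where 84 pairs were tested (25.9% and 27.4% lower). The 28 higher pairs (19.6%) became 20 of 143 with DESeq2 (14.0%) and 26 of 84 with thinned cells (31.0%). Of all pairs of a gene and a class, 6.36% were higher and 4.82% lower with DESeq2. With thinned cells 9.03% were higher and 7.68% lower. With 1 KLF2 replicate left out, KLF2 against vector was not tested, and the difference in log2 CPM with a small count added was used. Without KLF2 replicate 2, 11 of 18 calls over all cells moved by more than their SE. Within classes 34 moved, 3 reversed and 23 stayed within the SE. Without KLF2 replicate 1, 2 of 18 and 32 of 65 moved. The difference ranged from −1.32 to 1.65 for Ccl1 and from −0.18 to 2.21 for Cxcl10 in T/NK-like cells. For Ccl8 in mesenchymal-like cells it ranged from −3.27 to 3.09. It was negative without KLF2 replicate 2 in each case. Ligands with a source numbered 22 to 24 with 1 KLF2 replicate left out, where the other tests have no residual degrees of freedom. The neutrophil-like class was too small to test with at least 500 genes per cell or at most 10% mitochondrial UMIs. Over all cells, Ccl1 no longer passed with DESeq2, with at least 500 genes per cell or without the 5% highest doublet scores. Ccl20 (adjusted p = 0.994) no longer passed with at most 10% mitochondrial UMIs, nor did Cxcl14, and Cxcl16 (adjusted p = 0.086) did not with thinned cells.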
